A study of Mus musculus with 40 samples.

Results

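Gut hormones are secreted by enteroendocrine cells, which are scattered through the intestinal epithelium. The genes described here are *Gcg*, *Pyy*, *Nts*, *Cck*, *Sct*, *Gip*, *Ghrl* and *Sst*, which encode such hormones, *Chga*, which encodes the granule protein chromogranin A, and *Neurod1*, a transcription factor of the lineage. They were chosen by name, as 10 listed genes, and 9 of them are among the 15958 genes analysed. *Neurod1* was not analysed here. Mice had undergone small bowel resection (SBR), a model of short bowel syndrome, or a sham operation, and 22 libraries of the intestine were used out of 40 in the series. The 11 libraries of the duodenum and the 11 of the ileum each comprised 3 from sham mice given vehicle, 4 from SBR mice given vehicle and 4 from SBR mice given WUSTL0717, an agonist of the liver X receptors that is retained in the gut.

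All mice were C57BL/6 males operated on at 8 weeks of age. The labels give the extent of resection as 50 to 60% of the small bowel, and the study's methods state a larger extent. WUSTL0717 was given daily at 30 mg/kg for 7 weeks, starting 3 weeks after surgery, and no sham mice given WUSTL0717 were among these libraries. The ileum was the segment distal to the anastomosis, and in sham mice the bowel had been cut and rejoined without resection. Whether a duodenal and an ileal library came from the same mouse is not stated. Expression is given as log2 TPM, a read count scaled for transcript length and for the library's total, after the authors' correction for batch. That correction shifted and rescaled each gene separately, so levels were compared between libraries, for 1 gene or for the mean of a list. The filter on low values nevertheless used 1 level for all genes. Where differences of several genes are ranked or set side by side, the rescaling limits that comparison.

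Enteroendocrine cells sense nutrients and bile acids in the lumen and release peptides into the blood. Their hormones follow the length of the gut. K cells (*Gip*), I cells (*Cck*) and S cells (*Sct*) are typical of the proximal small intestine, whereas L cells (*Gcg* and *Pyy*) and N cells (*Nts*) are typical of the ileum and, for L cells, the colon. The glucagon-like peptides encoded by *Gcg* act on insulin secretion and on mucosal growth, peptide YY and neurotensin slow transit and act on appetite and fat absorption, and secretin stimulates bicarbonate secretion.

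In the ileum, the members that passed the test did so between SBR with WUSTL0717 and sham. *Pyy*, *Nts* and *Sct* were higher than in sham, by 1.40, 1.47 and 1.28 on the log2 scale. The vehicle-treated SBR group lay in between for each of these genes. This comparison joins resection and treatment, and neither SBR with vehicle against sham nor WUSTL0717 against vehicle gave a call among the members. The 3 calls also depended on the test and on single libraries. *Gip* lay lower after SBR with vehicle than after sham by 1.06 without passing the test. The sequences 5' of these 4 genes are shown because these members had the largest differences in the ileum, 3 upwards and 1 downwards. They come from RefSeq (GRCm38.p6) and run 5' to 3' on the gene's strand up to the base before the annotated start, at chr11:102107833-102108082 (minus strand) for *Pyy*, chr10:102490487-102490668 (minus) for *Nts*, chr7:141279134-141279383 (minus) for *Sct* and chr11:96024295-96024544 (plus) for *Gip*. For *Nts*, 68 further bases that lie inside the gene in GENCODE M21 were left out. Capitals mark a GATA box (AGATAA) or a GC box (GGGCGG), searched on both strands.
Pyy: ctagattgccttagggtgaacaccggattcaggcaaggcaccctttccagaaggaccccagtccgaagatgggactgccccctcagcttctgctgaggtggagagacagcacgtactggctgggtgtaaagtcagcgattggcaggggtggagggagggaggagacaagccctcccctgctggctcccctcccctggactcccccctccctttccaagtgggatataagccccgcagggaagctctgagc
Nts: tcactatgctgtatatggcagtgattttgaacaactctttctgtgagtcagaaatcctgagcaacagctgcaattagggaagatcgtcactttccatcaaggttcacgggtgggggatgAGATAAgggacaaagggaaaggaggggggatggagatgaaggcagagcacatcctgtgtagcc
Sct: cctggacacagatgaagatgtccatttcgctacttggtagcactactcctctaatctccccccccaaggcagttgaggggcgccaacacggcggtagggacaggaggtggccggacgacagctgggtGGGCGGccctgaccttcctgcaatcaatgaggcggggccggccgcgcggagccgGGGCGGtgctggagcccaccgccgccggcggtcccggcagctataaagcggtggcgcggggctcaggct
Gip: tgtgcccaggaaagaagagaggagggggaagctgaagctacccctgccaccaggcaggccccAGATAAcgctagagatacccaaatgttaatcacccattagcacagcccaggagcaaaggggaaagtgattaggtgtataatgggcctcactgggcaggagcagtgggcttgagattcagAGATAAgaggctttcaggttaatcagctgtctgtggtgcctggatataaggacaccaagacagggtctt
The GATA box is the binding motif of the GATA factors, among them Gata4 of the proximal intestine, and the GC box is bound by Sp factors. *Gip* held 2 GATA boxes, 69 and 188 bases before the start, and *Nts* held 1 at 131 bases before the RefSeq start. *Sct* held 2 GC boxes, at 69 and 123 bases. No match to either motif was in the *Pyy* window. Of 32851 mouse promoter windows of 250 bases, 9.99% held the GATA box and 32.7% the GC box, so a match is a description of the sequence and not evidence of a site.

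*Pyy* (chromosome 11, 102106676 to 102107832 in GRCm38) encodes peptide YY of the L cell. Its log2 TPM in the ileum was 2.79, 3.06 and 3.30 in sham mice, 4.17, 3.98, 3.97 and 3.97 in SBR mice given vehicle, and 4.18, 4.67, 4.45 and 4.50 in SBR mice given WUSTL0717. Every SBR library lay above every sham library, and every treated library lay above every vehicle library. The difference between SBR with vehicle and sham was 0.97 ± 0.23 (SE; limma adjusted p = 0.132). The difference between SBR with WUSTL0717 and sham was 1.40 ± 0.23 (SE; limma adjusted p = 0.0116), and the group means were 4.45 ± 0.20 (SD, n = 4) and 3.05 ± 0.25 (SD, n = 3).

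*Nts* (chromosome 10, 102481756 to 102490486), the neurotensin gene of the N cell, gave 2.80, 3.15 and 3.70 in sham ileum, 4.29, 4.04, 3.91 and 4.40 in SBR with vehicle, and 4.45, 4.97, 4.53 and 4.81 in SBR with WUSTL0717. The 3 groups did not overlap in any pair. *Nts* was 0.94 ± 0.28 (SE) higher in SBR vehicle than in sham mice (limma adjusted p = 0.243) and 1.47 ± 0.28 (SE) higher in treated SBR than in sham mice (limma adjusted p = 0.0202).

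*Sct* (chromosome 7, 141278330 to 141279133), the secretin gene, gave 2.92, 3.28 and 3.42 in sham ileum, 4.09, 4.09, 4.01 and 3.89 in SBR with vehicle, and 4.38, 4.48, 4.50 and 4.59 in SBR with WUSTL0717. As for *Nts*, the 3 groups were fully separated, and the spread was smaller among SBR libraries (SD 0.0961 with vehicle and 0.0876 with WUSTL0717) than among sham libraries (SD 0.256). *Sct* was 0.82 ± 0.22 (SE) higher in SBR vehicle than in sham mice (limma adjusted p = 0.197). It was 1.28 ± 0.22 (SE) higher in treated SBR than in sham mice (limma adjusted p = 0.0149).

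*Gcg* (chromosome 2, 62474530 to 62483650), the proglucagon gene of the L cell, gave 2.55, 2.62 and 2.37 in sham ileum, 3.16, 2.90, 3.24 and 3.12 in SBR with vehicle, and 2.97, 3.71, 2.86 and 2.83 in SBR with WUSTL0717. The SBR libraries of both arms lay above the sham libraries, and the arms overlapped each other. The difference from sham was 0.59 ± 0.26 (SE; limma adjusted p = 0.574) with vehicle and 0.58 ± 0.26 (SE; limma adjusted p = 0.347) with WUSTL0717. With WUSTL0717 relative to vehicle, *Pyy*, the other L-cell gene, was 0.43 higher (95% interval -0.04 to 0.90) and *Gcg* 0.01 lower (-0.54 to 0.52), and the difference between the genes was not tested.

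*Gip* (chromosome 11, 96024545 to 96030831), which encodes the incretin of the K cell, gave 2.65, 2.88 and 3.04 in sham ileum, 2.04, 1.81, 1.47 and 1.86 in SBR with vehicle, and 2.00, 2.09, 2.48 and 2.62 in SBR with WUSTL0717. Both SBR arms lay below every sham library, and the treated arm reached from within the vehicle range to above it. The difference between SBR vehicle and sham was -1.06 ± 0.25 (SE; limma adjusted p = 0.124), and between treated SBR and sham it was -0.56 ± 0.25 (SE; limma adjusted p = 0.345).

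*Chga* (chromosome 12, 102554969 to 102565028), expressed across enteroendocrine cell types, gave 2.77, 3.17 and 3.19 in sham ileum, 2.70, 2.34, 2.41 and 2.59 in SBR with vehicle, and 2.69, 2.82, 2.73 and 3.08 in SBR with WUSTL0717. The SBR vehicle group lay wholly below sham, and the treated group overlapped both. The difference between SBR vehicle and sham was -0.54 ± 0.23 (SE; limma adjusted p = 0.546). *Chga* therefore lay lower in the same libraries in which *Pyy*, *Nts*, *Sct* and *Gcg* lay higher.

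The other 3 members overlapped between sham and SBR vehicle mice in the ileum. *Cck* (chromosome 9, 121489824 to 121495694), encoding the I-cell hormone that contracts the gallbladder, ranged from 1.44 to 2.12 over the 11 ileal libraries. *Sst* (chromosome 16, 23889573 to 23890958), the somatostatin gene of the D cell, ranged from 2.54 to 3.25. *Ghrl* (chromosome 6, 113716119 to 113719880), the ghrelin gene, ranged from 1.15 to 2.06. Their differences between SBR vehicle and sham were -0.01 ± 0.24, -0.06 ± 0.24 and -0.19 ± 0.26 (SE), respectively.

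**Figure D1:**
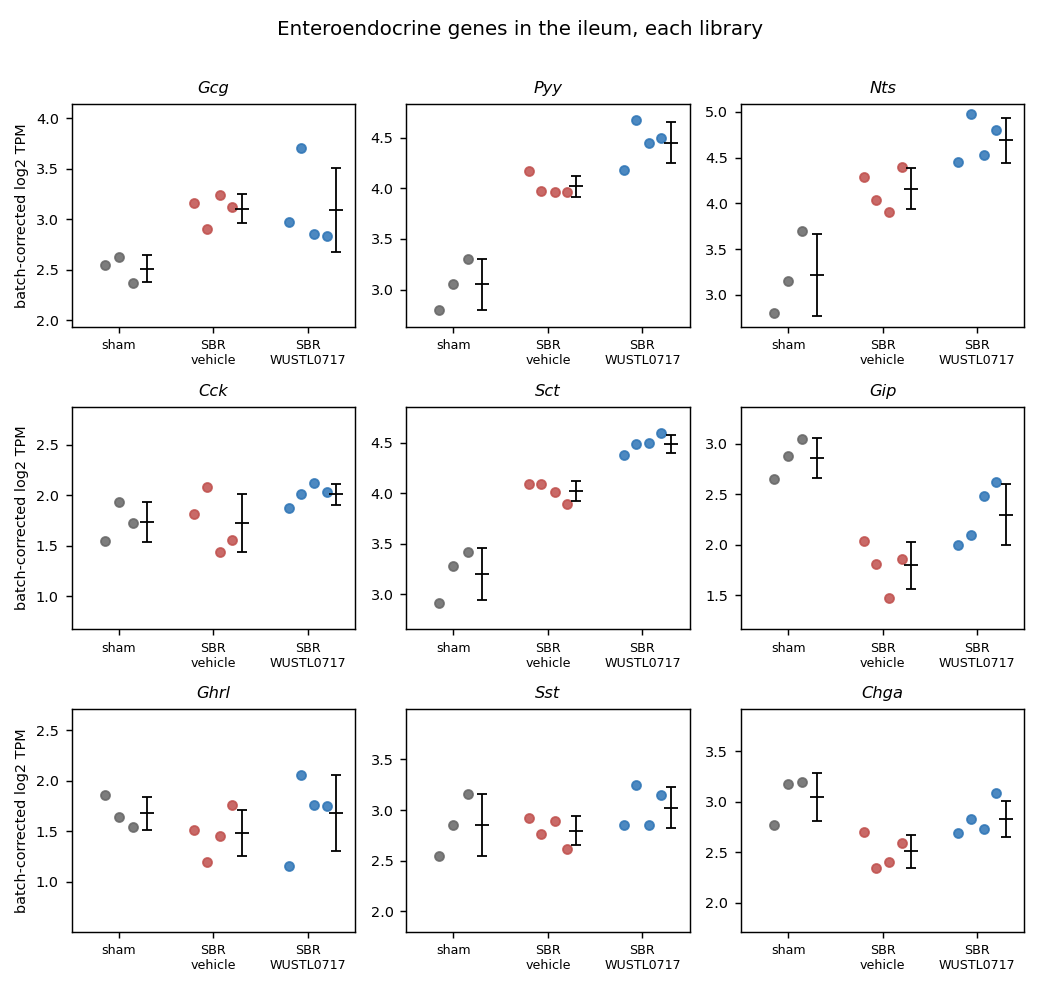
Batch-corrected log2 TPM (vertical axis) of the 9 genes in each ileal library, by group (horizontal axis); points are libraries, bars beside them the mean and SD (n = 3, 4 and 4). *Pyy*, *Nts* and *Sct* separate all 3 groups, *Pyy* narrowly (lowest 4.18 with WUSTL0717, highest 4.17 with vehicle). *Gip* and *Chga* of SBR mice given vehicle lie below every sham library.

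Counted over the members, 0 of 9 passed an adjusted p of 0.05 between SBR vehicle and sham ileum, where limma called 0.349% of 15766 genes. At an unadjusted p under 0.05 there were 6 of 9, compared with 8.45% of all genes, and the groups of these 6 genes did not overlap, compared with 9.5% of all genes. The unadjusted 6 comprised 4 higher (5.52% of all genes) and 2 lower (2.93%). The median difference of the members was -0.01, as they went in both directions, and that of all genes was 0.07. In whole tissue, a change in the number of cells of a type and a change in RNA per cell cannot be told apart.

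Between SBR mice given WUSTL0717 and SBR mice given vehicle, 8 of 9 members were higher in the ileum, with a median difference of 0.32, whereas the median of all genes was 0.00. None of these differences passed the test (0 of 9; limma called 0.0698% of genes), and 1, *Sct*, had an unadjusted p under 0.05 (6.82% of all genes). The groups were separated for 3 members, *Pyy*, *Nts* and *Sct*, all higher with WUSTL0717, compared with 3.83% of all genes (2.56% for higher alone). *Sct* differed by 0.47 ± 0.21 (SE), *Nts* by 0.53 ± 0.26, *Gip* by 0.50 ± 0.23 and *Pyy* by 0.43 ± 0.22, with limma adjusted p between 0.716 and 0.788. For the separated members the exact two-sided permutation p was 0.0286, the smallest that 4 libraries against 4 can give.

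Between treated SBR and sham ileum, 3 of 9 members passed, all higher, where 2.16% of all genes passed and 1.66% were higher. At an unadjusted p under 0.05 there were 5 of 9 (14.1% of all genes). The groups were separated for the same 5 members (13.2% of all genes), as *Gcg* lay higher and *Gip* lower in addition. This comparison shares its libraries with the other ileal comparisons, so it is no independent repeat of either. These 3 calls depended on the test and on single libraries. They were lost in a fit of the compared groups alone (adjusted p of 0.0542 for *Pyy*, 0.0636 for *Nts* and 0.0607 for *Sct*) and in an unmoderated two-sample test (0.0906, 0.155 and 0.0738). Without sham library 1 the adjusted p was 0.0620 for *Pyy*, 0.0965 for *Nts* and 0.0703 for *Sct*, without sham library 2 it was 0.0605, 0.0931 and 0.0635, and without treated library 3 that of *Nts* was 0.0502.

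Some marker genes of the region also differed between the ileal groups. All 4 genes of the ileal list (*Fabp6*, *Slc10a2*, *Osr2* and *Cyp4f14*) were in the table, and 2 of 4 passed the test between SBR vehicle and sham mice. *Fabp6* and *Slc10a2*, the ileal bile acid carrier and transporter, rose by 2.05 and 2.02 (limma adjusted p = 0.0131 and 0.0137), whereas *Osr2* differed by 0.33 and *Cyp4f14* by -0.76 (adjusted p = 0.834 and 0.749). The mean of the list was 5.83 to 5.86 in sham, 6.56 to 6.93 in SBR vehicle and 6.95 to 7.17 in treated SBR libraries. Between WUSTL0717 and vehicle after SBR, 0 of 4 passed. *Fabp6* (-0.12), *Slc10a2* (-0.18) and *Osr2* (0.05) differed by less than their SE, and the higher list mean came from *Cyp4f14*, at 8.11 ± 0.55 with vehicle and 9.51 ± 0.69 with WUSTL0717 (SD, n = 4 each; limma adjusted p = 0.483), whose groups overlapped.

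Of the duodenal list, 4 of 5 genes were in the table and 2 were fitted in the ileum, of which 0 passed. *Gata4*, a proximal factor, was at 4.85 ± 0.19 (SD, n = 3) in sham and 2.70 ± 1.06 (SD, n = 4) in SBR vehicle ileum (limma adjusted p = 0.399), and *Slc40a1*, the iron exporter ferroportin, was at 2.00 ± 0.30 and 3.48 ± 0.22 (adjusted p = 0.139), the opposite direction. The mean of the list was 1.49 to 1.70 in sham and 1.13 to 2.19 in SBR vehicle libraries, so the groups overlapped. The part of the position of the sampled ileum in the differences of *Pyy*, *Nts*, *Gcg* and *Gip* was not tested.

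Lists of other cell types went in both directions in the ileum. The epithelial list (7 of 7 genes) had a mean of 7.42 to 7.50 in sham, 7.71 to 8.22 in SBR vehicle and 7.88 to 8.38 in treated libraries. The absorptive enterocyte list (8 of 8 genes) was at 7.02 to 7.30 in sham, lower at 5.89 to 6.88 in SBR vehicle and at 6.68 or above in treated libraries, which overlapped both. The tuft cell list (2 of 5 genes) was at 1.41 to 1.54, 1.14 to 1.33 and 1.14 to 1.61, and the leukocyte list (6 of 6 genes) at 4.12 to 4.95, 3.66 to 4.77 and 3.41 to 4.17. The smooth muscle list (6 of 6 genes) was at 3.65 to 5.08, 4.23 to 4.96 and 3.88 to 5.09, and all 6 genes were higher in SBR vehicle than in sham ileum (median 0.45). No gene of these 5 lists passed the test between SBR vehicle and sham ileum. Between treated SBR and sham ileum, the comparison in which *Pyy*, *Nts* and *Sct* passed, all 6 leukocyte genes were lower (median -1.05) and 1 passed, *Jchain* of plasma cells, at -1.57 ± 0.35 (SE; limma adjusted p = 0.0418). The part of tissue makeup in the members' differences was not tested either.

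**Figure D2:**
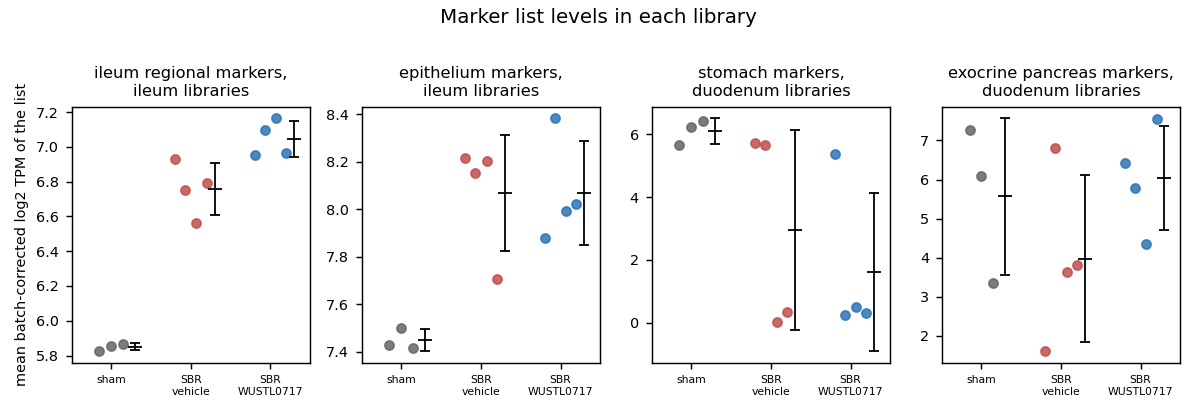
Mean batch-corrected log2 TPM (vertical axes) of 4 marker lists in each library by group; points are libraries and bars the mean and SD (n = 3, 4 and 4). The ileal list is at 5.83 to 5.86 in sham and 6.56 or above after SBR, with treated (6.95 or above) just above vehicle libraries (up to 6.93) through *Cyp4f14*, and the stomach list is near 0 in 5 duodenal libraries of SBR mice and above 5 in the other duodenal libraries.

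In the duodenum, *Gcg* and *Nts* had a mean log2 TPM below 1 and were not fitted, which left 7 of 9 members. Levels of *Gcg* ranged from 0.05 to 1.09 and those of *Nts* from -0.90 to -0.23 over the 11 libraries, and the groups overlapped in each comparison. The exact two-sided permutation p was 0.657 for *Gcg* and 0.943 for *Nts* between SBR vehicle and sham mice, and 0.286 and 0.886 between WUSTL0717 and vehicle after SBR.

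All 7 fitted members were lower in the duodenum of SBR vehicle than of sham mice, with a median of -0.41, but the median of all genes was -0.36. With each library centred on its median, *Pyy*, *Cck* and *Sct* were no longer lower (0.0039, 0.26 and 0.28), *Sst* and *Gip* were close to 0 (-0.0087 and -0.07), and *Ghrl* and *Chga* were at -0.24 and -0.48. None passed the test (0 of 7), and limma called 0.0% of 15069 genes. At an unadjusted p under 0.05 there was 1 of 7, *Chga*, compared with 2426 of all genes or 16.1%. The groups did not overlap for 3 of 7 members, *Chga*, *Gip* and *Ghrl*, compared with 9.66% of all genes (6.25% for lower alone).

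*Chga* in the duodenum was 2.60, 2.92 and 3.49 in sham mice, 2.21, 2.00, 2.31 and 1.98 in SBR with vehicle, and 2.70, 2.04, 2.42 and 2.11 in SBR with WUSTL0717. The vehicle group lay wholly below sham, and the treated group overlapped both. The difference between SBR vehicle and sham was -0.88 ± 0.35 (SE; limma adjusted p = 0.279).

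*Ghrl* gave 3.21, 3.29 and 3.13 in sham duodenum, 2.79, 2.44, 2.70 and 2.34 in SBR with vehicle, and 2.99, 2.89, 3.24 and 2.46 in SBR with WUSTL0717. Ghrelin is made mainly in the stomach and, at a lower level, in the proximal small intestine. The vehicle group lay below sham by 0.64 ± 0.34 (SE; limma adjusted p = 0.353), and the treated group overlapped both.

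*Gip* gave 3.61, 4.06 and 4.07 in sham duodenum, 3.52, 3.36, 3.45 and 3.42 in SBR with vehicle, and 3.59, 3.34, 3.67 and 3.48 in SBR with WUSTL0717. The difference between SBR vehicle and sham was -0.47 ± 0.35 (SE; limma adjusted p = 0.474). After median centring of the libraries the duodenal difference was -0.07. Over the settings, fits without a single library aside, it lay between -0.56 and -0.07, whereas the ileal one lay between -1.31 and -0.59. With a single library left out, the duodenal difference lay between -0.63 and -0.40 and the ileal one between -1.17 and -0.96. The groups did not overlap in either region, and neither difference passed the test.

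Stomach and pancreas genes varied widely among the duodenal libraries. The mean of the stomach list, of which 4 of 8 genes (*Tff1*, *Gkn1*, *Gkn2* and *Pgc*) were in the table, was 5.66 to 6.44 in sham libraries. It was 5.74, 5.65, 0.01 and 0.35 in the SBR vehicle libraries and 5.37, 0.25, 0.50 and 0.31 in the treated ones, and *Gkn2* was listed at 0 in some SBR libraries and in all ileal ones. The exocrine pancreas list (9 of 11 genes) ranged from 3.36 to 7.26 in sham, 1.62 to 6.80 in SBR vehicle and 4.36 to 7.54 in treated libraries. None of the 5 pancreatic islet genes listed was in the table. The Brunner gland list (2 of 3 genes) was at 7.37 to 8.73 in sham, 1.18 to 8.03 in SBR vehicle and 3.04 to 8.09 in treated libraries. Between SBR vehicle and sham duodenum, 7 of 8 absorptive enterocyte genes were higher (median 0.68) and all 6 leukocyte genes lower (median -0.61). The 5 fitted smooth muscle genes were also lower (median -0.55), and the list ranged from 3.29 to 3.64 in sham, 2.18 to 3.98 in SBR vehicle and 2.83 to 3.83 in treated libraries. In each of these 3 lists 0 genes passed the test. The part of these lists in the members' differences was not tested. With the 5 duodenal libraries low in stomach genes left out, 2 SBR vehicle libraries and 1 treated library remained, the lone library being taken to vary like the others. The differences between SBR vehicle and sham duodenum were then -0.90 for *Chga*, -0.59 for *Ghrl* and -0.47 for *Gip*, with limma adjusted p of 0.972 for each, and groups that did not overlap beforehand cannot overlap in this subset. Of the enteroendocrine marker list, 5 of 11 genes (*Chga*, *Chgb*, *Scg2*, *Pcsk1* and *Tph1*) were in the table. In the duodenum the list had a mean of 1.95 to 2.17 in sham, 1.42 to 1.69 in SBR vehicle and 1.52 to 1.93 in treated mice. *Chga* is itself a member, so the list is not separate from the members. The median of all genes between SBR vehicle and sham duodenum was -0.36. In the ileum the list was at 1.52 to 1.85 in sham, 1.60 to 2.01 in SBR vehicle and 1.84 to 2.29 in treated mice.

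**Figure D3:**
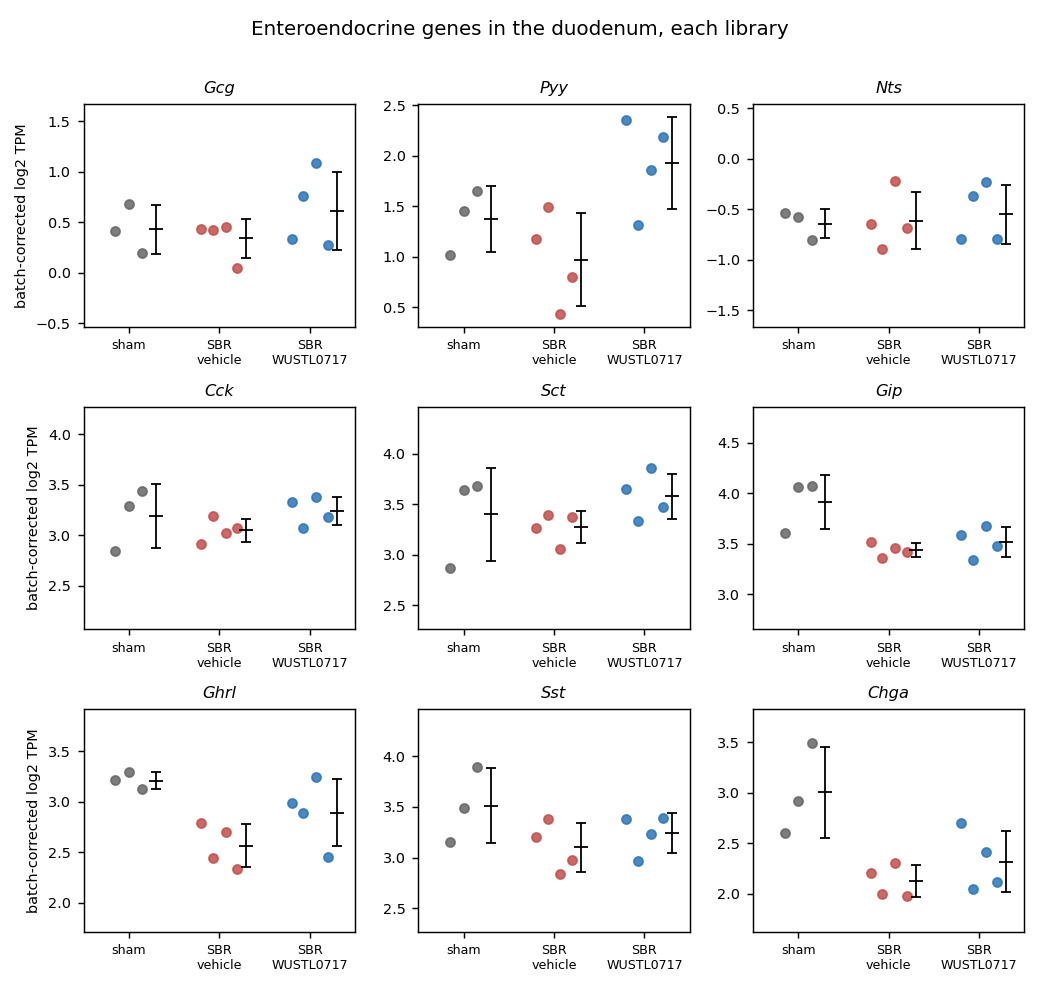
Batch-corrected log2 TPM (vertical axis) of the 9 genes in each duodenal library, by group (horizontal axis); points are libraries, bars beside them the mean and SD (n = 3, 4 and 4). *Chga*, *Gip* and *Ghrl* of SBR mice given vehicle lie below every sham library, and *Pyy* is highest in mice given WUSTL0717.

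Between WUSTL0717 and vehicle after SBR, all 7 fitted members were higher in the duodenum, with a median of 0.19, whereas the median of all genes was 0.04. None passed the test (0 of 7; 0.272% of all genes were called), and no member's groups were separated (0 of 7; 3.16% of all genes). *Pyy* showed the largest difference. It was 1.01, 1.45 and 1.65 in sham mice, 1.17, 1.49, 0.43 and 0.80 in SBR with vehicle, and 2.35, 1.31, 1.86 and 2.19 in SBR with WUSTL0717. Of the treated libraries, 3 lay above all others and 1 lay within the vehicle range. The difference was 0.95 ± 0.32 (SE; unadjusted limma p = 0.0103, adjusted p = 0.588; exact two-sided permutation p = 0.0571). With values turned back to TPM, on the assumption that 1 had been added before the log, it was 0.39 with a pseudocount of 5 and 1.52 with a pseudocount of 0.1. In all, 1 of 7 members had an unadjusted p under 0.05, compared with 5.28% of all genes. Between treated SBR and sham duodenum, 0 of 7 members passed (0.737% of all genes), 0 of 7 had an unadjusted p under 0.05 (16.8% of all genes) and the groups overlapped for all 7 (18.4% of all genes did not).

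*Sct*, *Cck* and *Sst* overlapped between all groups of the duodenum. *Sct* ranged from 2.87 to 3.86, *Cck* from 2.84 to 3.44 and *Sst* from 2.84 to 3.89 over the 11 libraries. Between SBR vehicle and sham mice, their differences were -0.13 ± 0.37, -0.14 ± 0.34 and -0.41 ± 0.36 (SE).

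**Figure D4:**
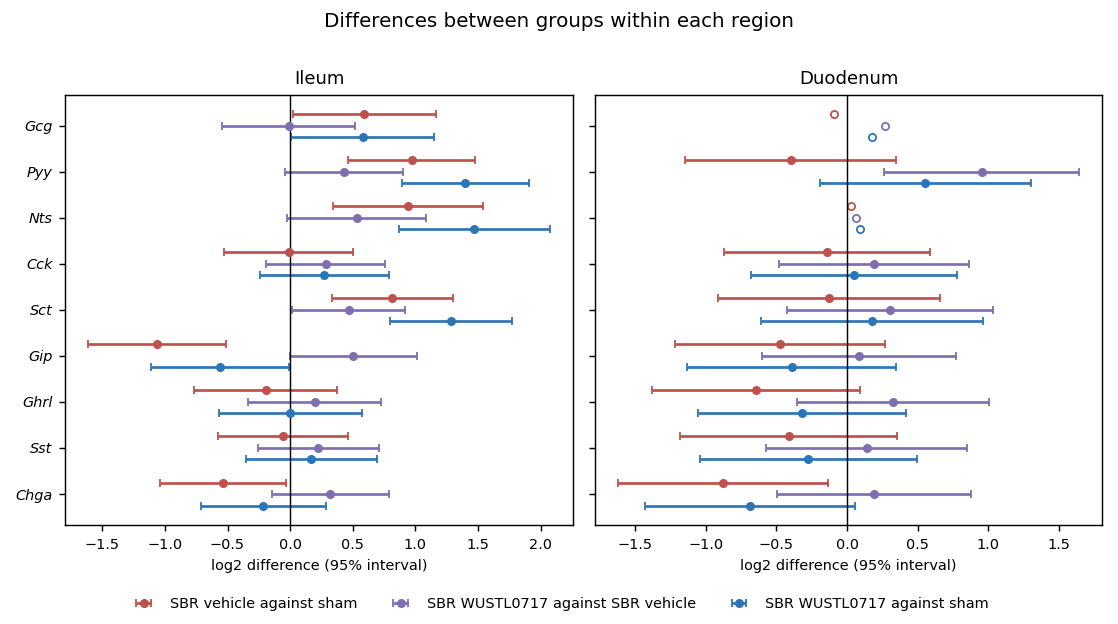
Log2 differences between groups (horizontal axes) with 95% limma intervals for each gene (vertical axis) in the ileum and in the duodenum; open points without bars are *Gcg* and *Nts* in the duodenum, which were not fitted. In the ileum the *Pyy*, *Nts* and *Sct* differences between treated SBR and sham lie at 1.28 to 1.47.

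The regions were compared within each group. In sham mice, 6 of 9 members differed between duodenum and ileum, where 14.6% of 15923 genes were called (3.83% higher and 10.8% lower in the duodenum). *Nts* and *Gcg* are among the 6 and entered this fit only through their ileal levels, so their calls partly follow from the filter. *Nts* (-3.86 ± 0.28), *Gcg* (-2.08 ± 0.28) and *Pyy* (-1.68 ± 0.31) were lower in the duodenum, and *Ghrl* (1.53 ± 0.27), *Cck* (1.46 ± 0.25) and *Gip* (1.05 ± 0.26; all SE) were higher, with limma adjusted p of at most 0.00929. The sizes for *Nts* and *Gcg* are set against duodenal levels too low to be fitted within that region. The duodenal and ileal libraries did not overlap for any of these 6 (37.9% of all genes did not). The median of all genes was -0.52, so the higher genes went against it. These 6 kept their direction with each library centred on its median and with quantile normalization, in all 3 groups. Their size in sham mice depended on the setting, most of all on the pseudocount. Duodenal *Nts* values were all negative, so with either pseudocount they were cut to the pseudocount itself, in every group. The ends of the *Nts* ranges here and after SBR come from that cut and are not measured sizes. *Nts* lay between -6.39 and -1.42, *Gcg* between -3.50 and -0.86, *Pyy* between -2.15 and -0.90, *Cck* between 0.84 and 1.91, *Gip* between 0.76 and 1.57 and *Ghrl* between 0.88 and 1.99, and the call of *Gip* was lost in some settings (limma adjusted p up to 0.0757).

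*Sct*, *Sst* and *Chga* did not pass in sham mice. *Sct* was 0.20 ± 0.28, *Sst* 0.66 ± 0.28 and *Chga* -0.04 ± 0.28 (SE) in the duodenum relative to the ileum, and their libraries overlapped between the regions. For *Sst* the centred value was 1.11 (limma adjusted p = 0.0079).

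After SBR, the 6 genes kept these directions. In both SBR arms *Nts* and *Gcg* again entered the fit only through their ileal levels, so their sizes are set against low duodenal values. In vehicle-treated mice the duodenum was lower by 4.77 for *Nts*, by 3.05 for *Pyy* and by 2.76 for *Gcg*, and it was higher by 1.64 for *Gip*, by 1.33 for *Cck* and by 1.08 for *Ghrl*. In treated mice, *Nts* was lower by 5.24, *Pyy* by 2.52 and *Gcg* by 2.48, and *Cck* (1.23), *Gip* (1.22) and *Ghrl* (1.21) were higher. These sizes too depended on the setting. With vehicle *Nts* lay between -7.40 and -2.13, *Pyy* between -3.95 and -1.75, *Gcg* between -4.51 and -1.26, *Gip* between 0.99 and 2.57, *Cck* between 0.75 and 2.26 and *Ghrl* between 0.55 and 2.02. With WUSTL0717 *Nts* lay between -7.96 and -2.58, *Pyy* between -2.88 and -1.63, *Gcg* between -3.73 and -1.18, *Cck* between 0.75 and 2.12, *Gip* between 0.79 and 2.11 and *Ghrl* between 0.66 and 2.10. *Sct* also passed after SBR, at -0.75 ± 0.24 with vehicle and -0.91 ± 0.24 (SE) with WUSTL0717 (limma adjusted p = 0.0127 and 0.00373). Thus 7 of 9 members passed in each SBR arm, against 56.9% of all genes with vehicle and 55.9% with WUSTL0717, and the medians of all genes were -0.98 and -0.95. Centred on the library median, *Sct* was 0.19 and -0.02 in the respective arms, so its regional difference did not go beyond that of the genes at large. *Sst*, which did not pass after SBR, gained a call in both arms with this centring, at 1.24 with vehicle and slightly less with WUSTL0717 (limma adjusted p of at most 0.00126).

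**Figure D5:**
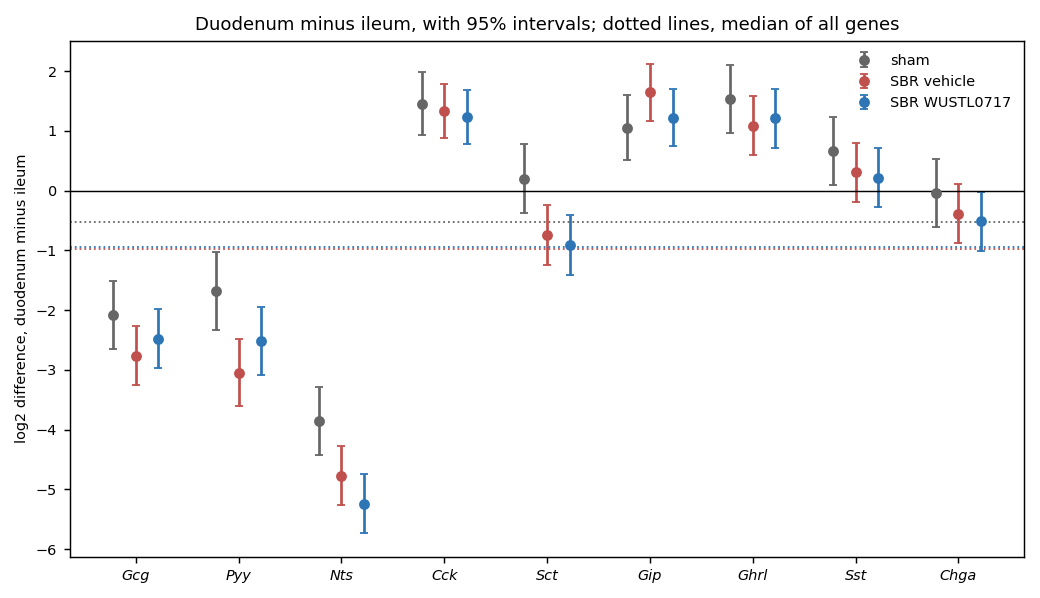
Log2 difference between duodenum and ileum (vertical axis, duodenum minus ileum) with 95% limma intervals for each gene in sham, SBR vehicle and SBR WUSTL0717 mice; dotted lines mark the median of all genes in each group (-0.52, -0.98 and -0.95). *Gcg*, *Pyy* and *Nts* lie below these lines and *Cck*, *Gip* and *Ghrl* above 0 in every group.

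Whether the effect of SBR differed between the regions was tested directly. For SBR with vehicle, 0 of 9 members passed (0.0754% of all genes were called), and 3 of 9 had an unadjusted p under 0.05, compared with 13.8% of all genes. The effect was greater in the ileum than in the duodenum by 1.37 ± 0.42 (SE) for *Pyy* (limma adjusted p = 0.238), by 0.94 ± 0.37 for *Sct* (adjusted p = 0.316) and by 0.91 ± 0.36 for *Nts* (adjusted p = 0.325), and the median of all genes was 0.44. *Nts* was too low to be fitted within the duodenum. It differed by 0.03 there and by 0.94 in the ileum, so its value mostly restates the ileal difference. For WUSTL0717 after SBR, 0 of 9 members passed and 0 of 9 had an unadjusted p under 0.05 (0.0251% and 3.33% of all genes). The *Pyy* effect was smaller in the ileum by 0.52 ± 0.39 (SE), with an adjusted p of 1.

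Pairs of members were also compared among libraries of the same group. Over the 22 libraries pooled and over the 11 ileal ones, deviations from the group means correlated most for *Pyy* with *Sst* (Pearson r = 0.87 in each). In the 11 duodenal libraries that pair and *Cck* with *Sct* both gave 0.91, and *Pyy* and *Nts* gave -0.82. Over the 36 pairs of members, r was above 0 for 25 pairs in the pooled libraries, 30 in the ileum and 24 in the duodenum. The share among all pairs of genes was not computed, so these counts are not a trait of the members. All genes of a library share its total and its tissue piece, so these values are descriptions. Among 15923 genes, those most alike were *Khk* (0.92) and *Alpi* (0.88) for *Gip*, *Spr* (0.88) and *Sst* (0.87) for *Pyy*, *Chchd7* (0.85) and *2200002D01Rik* (0.84) for *Sct*, and *Gm25683* (0.77) and *Depdc7* (0.76) for *Nts*. For *Gcg* they were *Rbm7* (0.91) and *Mtx2* (0.89), for *Cck* *Gm10548* and *Slc46a1* (both 0.83), for *Ghrl* *Adgre1* (0.86) and *Eed* (0.83), for *Sst* *Pyy* and *Spr* (both 0.87), and for *Chga* *Cbx2* and *Fam53b* (both 0.92).

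Other genes of enteroendocrine function were taken from 6 lists with 90 entries in all, of which 28 were in the table. They were 4 of 13 further hormones and neuropeptides, 4 of 19 transcription factors, 7 of 19 granule and prohormone processing genes, 5 of 8 serotonin genes, 3 of 12 nutrient and bile acid sensors and 5 of 19 receptors and hormone-degrading enzymes. In none of the within-region comparisons did a fitted gene of these lists pass (0 of 24 in the duodenum and 0 of 26 in the ileum). At an unadjusted limma p under 0.05, 3 were higher and 3 lower in the ileum of SBR vehicle compared with sham mice, compared with 5.52% higher and 2.93% lower of all genes. In the duodenum 1 was higher and 5 were lower, compared with 3.32% higher and 12.8% lower of all genes, so the lower side was also the larger one among all genes.

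The leading gene of each list is the one with the smallest p in a comparison. In the ileum after SBR with vehicle, *Vip*, a neuropeptide of enteric neurons, was 1.17 ± 0.32 (SE) higher than sham (limma adjusted p = 0.197), while the enteric neuron list (5 of 12 genes) had a mean of 1.62 to 2.08 in sham and 2.00 to 2.51 in SBR vehicle libraries. *Ddc*, the decarboxylase that makes serotonin and dopamine, was 1.17 ± 0.29 lower (adjusted p = 0.139). *Ffar4*, a fatty acid receptor of L and other enteroendocrine cells, was 0.67 ± 0.24 higher (adjusted p = 0.40), *Foxa1*, a factor of endocrine and goblet cells, 0.54 ± 0.25 higher (adjusted p = 0.587), *Pam*, which amidates peptides, 0.79 ± 0.43 higher (adjusted p = 0.730) and *Vipr1*, the VIP receptor, 1.22 ± 0.44 lower (adjusted p = 0.396).

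In the duodenum of SBR vehicle compared with sham mice, *Slc5a1*, the glucose transporter by which K and L cells sense glucose, was 1.78 ± 0.48 (SE) higher (limma adjusted p = 0.235). *Foxa2*, a transcription factor, was 1.86 ± 0.72 and *Nucb2*, the nesfatin precursor, 0.97 ± 0.35 lower (adjusted p = 0.279 and 0.278). *Ptprn2*, of the granule membrane, differed by -0.56 ± 0.25, *Slc18a1*, a monoamine transporter, by 0.97 ± 0.49 and *Dpp4*, the peptidase that inactivates incretins, by 0.83 ± 0.45 (adjusted p = 0.298, 0.333 and 0.363).

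With WUSTL0717 compared with vehicle after SBR, the leading genes in the ileum were *Ddc* (0.68 ± 0.27), *Foxa2* (0.70 ± 0.35), *Chgb* (0.29 ± 0.23), *Nucb2* (-0.40 ± 0.29), *Slc5a1* (-0.16 ± 0.34) and *Dpp4* (-0.10 ± 0.26; all SE), with limma adjusted p between 0.644 and 0.981. In the duodenum *Maob*, a monoamine oxidase, was 1.54 ± 0.43 higher (adjusted p = 0.325) and *Slc5a1* 1.06 ± 0.44 lower (adjusted p = 0.831). *Vip* (0.23 ± 0.40), *Foxa2* (0.50 ± 0.66), *Chgb* (0.32 ± 0.32) and *Vipr1* (-1.09 ± 0.57) each had an adjusted p of 1.

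Between treated SBR and sham ileum, the leading genes were *Vip* (0.83 ± 0.32), *Foxa1* (0.77 ± 0.25), *Ffar4* (0.65 ± 0.24), *Ptprn* (0.51 ± 0.25), *Vipr1* (-1.09 ± 0.44) and *Maob* (-1.33 ± 0.75; all SE), with limma adjusted p between 0.154 and 0.483. In the duodenum they were *Maob* (1.72 ± 0.47), *Slc5a1* (0.73 ± 0.48), *Nucb2* (-1.03 ± 0.35), *Sox4* (-1.32 ± 0.47), *Pam* (-1.39 ± 0.62) and *Glp1r*, the GLP-1 receptor (-2.10 ± 0.76), with adjusted p between 0.131 and 0.439. None of these leading genes passed the test.

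As a check of the treatment, *Abca1*, a direct target of the liver X receptors, was higher with WUSTL0717 than with vehicle after SBR by 3.55 ± 0.51 (SE) in the duodenum and 2.79 ± 0.34 in the ileum (limma adjusted p = 0.00975 and 0.0148). The median log2 TPM of a library was 2.13 to 3.09 for duodenal and 3.18 to 3.82 for ileal libraries. Replicate libraries correlated at r = 0.81 to 0.93 across genes.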

How the data were processed

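The authors removed ribosomal RNA, primed cDNA with random hexamers, aligned reads with STAR to the mouse genome (Ensembl annotation), counted uniquely aligned reads with featureCounts, took TPM to a log2 scale and corrected batches with ComBat. The deposited log2 values hold no read totals, so sequencing depth per library, and the precision that would follow from it, is unknown. Intestinal libraries formed batch 1. Liver libraries, of the other batch, were not used, because the correction moves genes silent in the liver to intestinal levels.

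Genes with a mean log2 value of at least 1 and more than 1 distinct value in a region (15069 in the duodenum, 15766 in the ileum, 15923 in both) were fitted with limma 3.58.1 in R 4.3.3, with all groups of the region and a variance trend. Regional differences and differences of effects were fitted over all 22 libraries. P-values were adjusted by Benjamini-Hochberg over all genes fitted, and a gene was called at an adjusted p under 0.05. Log2 differences are on the batch-corrected scale, which ComBat rescales by gene, so they were not turned into folds. Exact two-sided permutation tests used the difference of means. The fits were tested on simulated data. The labels do not say that libraries came from separate mice, so p-values measure the spread between these libraries.

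The rule named all 10 genes in each comparison, of which 9 were in the table and are reported, with the called genes (at most 3) or the gene with the smallest p of each related list, and the 2 genes most alike each member by the correlation of deviations from group means; for the lists, these are given for the comparisons within a region. Members and lists were chosen with earlier results of these data known. Alternatives were other filters, pseudocounts, scalings and tests, library weights, a replicate block and leaving out libraries. Coordinates are from GENCODE M21 (GRCm38), and all 9 members matched a RefSeq promoter.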

Additional observations from a re-analysis of the deposited data

Results flagged for a closer look

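In groups of 4 libraries, a member was examined for a library far from the other 3, and 3 such libraries were found in 36 group values. Chance marks about 1 in 20 groups. *Gcg* in the duodenum of SBR vehicle mice had a lowest library at 0.052, and the others lay between 0.43 and 0.45. *Gcg* in the ileum of SBR mice given WUSTL0717 had a highest library at 3.71, and the others lay between 2.83 and 2.97. *Pyy* in the ileum of SBR vehicle mice had a highest library at 4.17, and the others lay between 3.97 and 3.98. Without that library, the *Pyy* difference between SBR vehicle and sham ileum remained without a call.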

How the results depend on the processing

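The report's counts and member differences were recomputed under 11 other settings, 1 setting chosen after seeing the data, and with each library left out. Of 1832 recomputed member differences, 1736 kept their direction and their side of the threshold, 56 changed sign, 21 lost their call and 19 gained one. Library weights added calls, giving 4 of 9 members between SBR vehicle and sham ileum (*Pyy*, *Nts* and *Sct* higher, *Gip* lower), 1 of 7 in the duodenum (*Chga*, lower) and 3 of 9 for the ileal minus duodenal SBR effect. With the same weights 1.75%, 17.1% and 12.5% of all genes were called. The 3 calls between treated SBR and sham ileum became 0 with a fit of the groups compared alone, 0 with an unmoderated two-sample test and 0 with a replicate block, and 0 to 3 when 1 library was left out. A filter at a mean of 3 left 2 members in the regional comparisons, of which 0 passed in sham, 1 in SBR vehicle and 1 in SBR WUSTL0717 mice, because fewer members were fitted. Without 1 library the regional counts were 6 in sham, 7 in SBR vehicle and 7 to 8 in SBR WUSTL0717 mice, and the counts of the other comparisons stayed at 0.

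In no comparison was the correlation of every same-numbered pair over 0.1. It was 0.070 to 0.45 between the sham duodenum and ileum and below 0 for at least 1 pair in each other comparison. The replicate block therefore pairs libraries by number only. It changed no other count by more than 1.5 times. Adjusted p-values over these settings lay between 0.0033 and 0.0906 for *Pyy*, 0.0060 and 0.155 for *Nts* and 0.0035 and 0.0872 for *Sct* between treated SBR and sham ileum.

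Changes of sign concerned differences that did not pass the test, except that of *Sct* between regions in SBR vehicle mice, and with quantile normalization *Chga* became a call in the other direction there (limma adjusted p = 0.0494). Centred on the library median the difference was *Pyy* 0.0039, *Cck* 0.26, *Sct* 0.28 in duodenal SBR vehicle minus sham, *Ghrl* 0.047, *Sst* 0.091 in duodenal SBR WUSTL0717 minus sham and *Chga* 0.41 in duodenum minus ileum in sham. It was *Sct* 0.19, *Chga* 0.55 in duodenum minus ileum in SBR vehicle, *Chga* 0.37 in duodenum minus ileum in SBR WUSTL0717 and *Cck* -0.35, *Ghrl* -0.031, *Sst* -0.12, *Chga* -0.13 in the ileal minus duodenal SBR effect. It was *Ghrl* -0.069 in ileal SBR WUSTL0717 minus sham. With quantile normalization the difference was *Cck* 0.28, *Sct* 0.28 in duodenal SBR vehicle minus sham, *Ghrl* 0.010, *Sst* 0.046 in duodenal SBR WUSTL0717 minus sham and *Chga* 0.41 in duodenum minus ileum in sham. It was *Sct* 0.20, *Chga* 0.52 in duodenum minus ileum in SBR vehicle, *Chga* 0.32 in duodenum minus ileum in SBR WUSTL0717 and *Cck* -0.30, *Sst* -0.085, *Chga* -0.11 in the ileal minus duodenal SBR effect. It was *Ghrl* -0.0068 in ileal SBR WUSTL0717 minus sham. With library weights the difference was *Chga* -0.0023 in the ileal minus duodenal WUSTL0717 effect and *Ghrl* -0.020 in ileal SBR WUSTL0717 minus sham. With the replicate block the difference was *Cck* 0.012 in ileal SBR vehicle minus sham and *Ghrl* -0.056 in ileal SBR WUSTL0717 minus sham. With a pseudocount of 0.1 the difference was *Ghrl* -0.017 in ileal SBR WUSTL0717 minus sham. With 1 library left out, differences ranged from -0.39 to 0.015 for *Sct* in duodenal SBR vehicle minus sham and from -0.13 to 0.17 for *Cck* and from -0.085 to 0.32 for *Sct* in duodenal SBR WUSTL0717 minus sham. They ranged from -0.28 to 0.16 for *Chga* in duodenum minus ileum in sham and from -0.28 to 0.046 for *Ghrl* and from -0.0073 to 0.17 for *Sst* in the ileal minus duodenal WUSTL0717 effect. They ranged from -0.13 to 0.090 for *Cck* and from -0.21 to 0.10 for *Sst* in ileal SBR vehicle minus sham and from -0.22 to 0.075 for *Gcg* in ileal SBR WUSTL0717 minus SBR vehicle. They ranged from -0.12 to 0.18 for *Ghrl* in ileal SBR WUSTL0717 minus sham. Apart from those that each scaling shifts by construction, the cause was not tested. Without the 5 duodenal libraries low in stomach genes, 0 of 7 members passed.

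Because read totals are unknown, precision at low values, as for *Gcg* and *Nts* in the duodenum, could not be given. The standard errors of the members were larger in the duodenum (0.31 to 0.37) than in the ileum (0.21 to 0.28).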
